A study of Mus musculus with 4 samples.

Results

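The insulin-like growth factor (IGF) axis was examined as 10 genes picked by symbol from the deposited count tables: the ligands Igf1 and Igf2, the receptor Igf1r, and the binding proteins Igfbp1 to Igfbp7. All 10 were among the 54532 genes listed in the tables, and 8 held enough reads to be tested. Igf1 and Igf2 are secreted hormones that signal through Igf1r, a cell-surface receptor tyrosine kinase that feeds the PI3K, AKT and MAPK cascades. The binding proteins are secreted carriers that hold the ligands in tissue fluid and matrix, extend their lifetime or keep them from the receptor, and several also act on cells without a ligand. In the mammary gland IGF1 made by the stroma is a growth and survival signal for the epithelium, and in breast tumours fibroblasts are a known source of IGF ligands and binding proteins.

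The study compared cancer-associated fibroblasts (CAFs), the fibroblasts of a tumour, with and without targeted radiation. All 4 RNA sequencing libraries came from primary mammary tumours of C57BL/6 mice labelled MMTV-PyMT and Dll1 mcherry+, a model in which the MMTV promoter drives the polyoma middle T oncogene in mammary epithelium. In the 2 unirradiated libraries (A and B) the tumours were given no radiation, and in the 2 irradiated libraries (A and B) the label gives radiation at day 6 and the study design gives 6 Gy. Every title carries a 6-day mark, and neither the age of the mice nor the time from radiation to collection is given in the labels. Tumours were dissociated with enzymes and fibroblasts were detected with an antibody against PDGFRa. The labels do not say whether A and B were separate animals, and a p-value here rests on the spread between the libraries alone, which may be technical. That spread is largely shared over all genes, with 60 prior against 2 residual degrees of freedom. A p-value thus does not measure the spread of its own gene. No batch is labelled either, and one that followed the groups and the irradiation cannot be told apart.

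Total counts ranged from 13011489 to 23763830 per library, which set the value of 1 read at 0.0403 to 0.0809 CPM, the count scaled to a common library size. The fibroblast label was checked against marker genes, and their levels did not bear out libraries of fibroblasts alone. The summed level of 10 fibroblast markers was 526 and 489 CPM in the unirradiated and 1686 and 1701 CPM in the irradiated libraries, with 9 of 10 higher by the test, and Pdgfra itself went from 5.59 ± 0.223 to 23.7 ± 1.17 CPM (SD, n = 2). The summed level of 10 epithelial markers was far larger in all 4 libraries, at 8940 and 8964 CPM without and 8183 and 8507 CPM with radiation. Krt8 alone, at a mean of 2538 CPM without and 2565 CPM with radiation, exceeded the whole fibroblast sum. The IGF levels below are thus those of mixed libraries and not of fibroblasts alone. Of the 10 epithelial markers, 2 were called higher and 5 lower, so the sum held changes both ways. Krt19 rose from a mean of 80.4 to 525 CPM, and Krt5 fell from 83.3 to 29.5 CPM. All 8 macrophage markers were higher (summed level 205 and 212 against 588 and 592 CPM), as were all 8 endothelial markers (65.1 and 65.9 against 170 and 158 CPM), 6 of 7 tested pericyte and smooth muscle markers (225 and 211 against 325 and 327 CPM) and 3 of 4 tested chondrocyte markers (411 and 407 against 1780 and 1791 CPM, Matn1 at 0). The fourth tested chondrocyte marker, Comp, was lower, at 107 and 102 against 5.59 and 6.66 CPM (log2 fold change -4.07). Of 5 tested T and NK cell markers 3 were lower, at a summed 8.47 and 8.98 against 3.79 and 3.83 CPM. The hepatocyte markers summed to at most 1.25 CPM, with Ttr and Serpina1a at 0. Beside these marker counts, 33.9% of all tested genes were called higher and 32.5% lower. The marker levels moved with the groups, and their part in the IGF results was not tested. In bulk RNA, fewer cells of a type and less RNA per cell cannot be told apart.

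RefSeq promoter windows of 4 of these genes are shown, chosen for the binding protein with the highest level, Igfbp5, the one with the largest rise, Igfbp2, the one whose window held a TATA box on the gene's strand, Igfbp4, and Igf1r, the member that moved the other way. They are from RefSeq on GRCm38.p6, which gave an entry for all 10 members, and are printed 5′ to 3′ on the gene's strand up to the RefSeq start site. That site lies 570 bases before the start of Igf1r in the count files, so the Igf1r window does not adjoin the counted gene. For Igfbp5 the bases that the count files place inside the gene are left off. Capitals mark matches, on either strand, to a TATA box (TATAAA), a GC box (GGGCGG), an AP-1 site (TGANTCA), a FOXO core (GTAAACA) or an insulin response core (CAAAACA).
Igfbp5, chr1:72874885-72875115, minus strand: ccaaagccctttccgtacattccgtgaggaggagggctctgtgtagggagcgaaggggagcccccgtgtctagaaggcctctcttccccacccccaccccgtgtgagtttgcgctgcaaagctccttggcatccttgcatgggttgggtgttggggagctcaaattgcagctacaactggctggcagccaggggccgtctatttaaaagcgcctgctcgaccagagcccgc
Igfbp2, chr1:72824230-72824479, plus strand: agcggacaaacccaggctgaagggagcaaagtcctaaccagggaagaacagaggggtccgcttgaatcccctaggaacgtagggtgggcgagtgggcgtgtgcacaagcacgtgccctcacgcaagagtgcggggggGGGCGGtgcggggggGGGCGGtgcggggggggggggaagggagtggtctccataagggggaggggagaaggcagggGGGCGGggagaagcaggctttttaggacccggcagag
Igfbp4, chr11:99040994-99041243, plus strand: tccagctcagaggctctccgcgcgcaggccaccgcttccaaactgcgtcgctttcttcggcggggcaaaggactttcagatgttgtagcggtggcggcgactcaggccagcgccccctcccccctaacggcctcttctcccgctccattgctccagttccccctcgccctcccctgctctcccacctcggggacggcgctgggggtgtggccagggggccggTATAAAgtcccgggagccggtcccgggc
Igf1r, chr7:67952007-67952256, plus strand: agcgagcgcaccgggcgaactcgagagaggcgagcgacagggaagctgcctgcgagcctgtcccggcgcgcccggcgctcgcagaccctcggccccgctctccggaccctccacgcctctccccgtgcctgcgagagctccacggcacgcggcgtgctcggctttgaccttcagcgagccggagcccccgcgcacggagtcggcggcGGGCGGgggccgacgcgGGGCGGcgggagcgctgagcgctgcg
The Igfbp4 window held a TATA box 28 to 23 bases before its start site, the Igfbp2 window held 3 GC boxes and the Igf1r window held 2, while the Igfbp5 window held none of the 5 motifs. Among 32851 RefSeq windows of the same length, 12.4% held the TATA letters and 32.7% the GC box letters. The GC content of the full window was 58.8% for Igfbp5, 67.2% for Igfbp2, 69.2% for Igfbp4 and 77.6% for Igf1r, against a median of 52.4% over all windows. Outside these 4, the Igf1 window held 1 AP-1 match 37 to 31 bases before its RefSeq start, and matches to an AP-1 site occurred in 6.75% of all windows. That start lies 2846 bases inside Igf1 as placed by the count files, so the Igf1 window is not upstream of the counted gene. Such matches describe letters and not bound sites.

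Most of the axis was higher in the irradiated libraries. Of the 8 tested members, 7 rose, namely Igf1 and the binding proteins Igfbp2 to Igfbp7, and Igf1r fell. Among all 15961 genes tested with the same fit, 33.9% were called higher and 32.5% lower. The median log2 fold change was 2.00 over the 8 members and -0.004 over all tested genes. Against a change of at least 1.5-fold the same 7 members passed as higher, beside 12.7% of all tested genes, and Igf1r passed as lower, beside 11.0%. The 2 libraries of a group did not overlap those of the other group for any of the 8 genes. That alone does not set them apart, since the pathway genes Igf2r and Grb2 did not overlap either and were not called. The share of all tested genes without such overlap is not reported here, so nothing is drawn from it. Each of the 8 held at least 22 counts in every library, so none was admitted by its irradiated reads alone. Adjusted p-values come from the quasi-likelihood test of edgeR, with the Benjamini-Hochberg method applied over all tested genes.

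**Figure D1:**
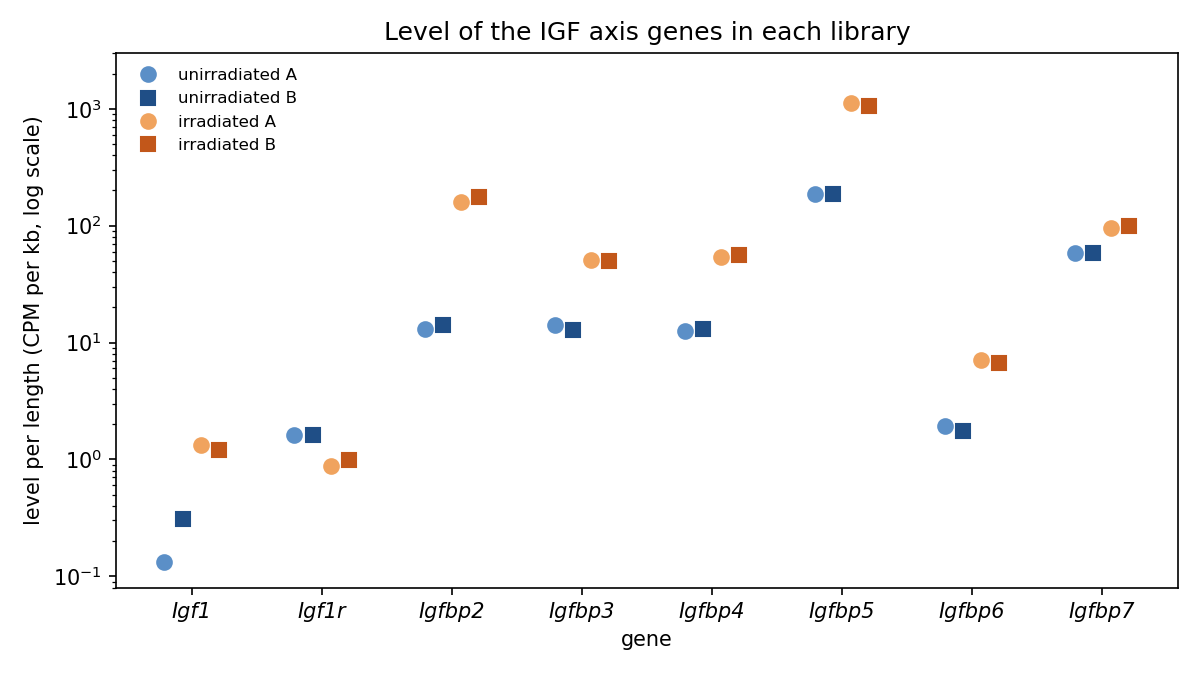
Level of the 8 tested IGF axis genes in each of the 4 libraries, in CPM per kilobase of gene length on a log scale, with 1 point per library (unirradiated in blue, irradiated in orange). Igfbp5 was highest in every library, from 185 to 1129, and Igf1r was the gene whose irradiated points, 0.885 and 0.995, lay under its unirradiated points, 1.61 and 1.63.

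The ligand Igf1 (ENSMUSG00000020053, chr10:87858265-87937042, plus strand of mm10) was among the lowest transcripts of the set. It had 22 and 38 counts in the unirradiated libraries and 217 and 294 in the irradiated libraries, or 1.31 and 3.07 CPM against 13.05 and 11.9 CPM. Both irradiated libraries were above both unirradiated ones, but the unirradiated pair itself differed more than for any tested binding protein. The mean was 2.19 ± 1.25 CPM without and 12.5 ± 0.840 CPM with radiation (SD, n = 2), a log2 fold change of 2.58 (SE 0.222, adjusted p = 3.80e-16). The size rested on which unirradiated library was kept: it was 2.01 without unirradiated A and 3.23 without unirradiated B, and the call held in both. The antisense gene Igf1os, which shares 0 exon bases with Igf1, had 3 counts in irradiated A and 0 in the other libraries.

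The other ligand, Igf2, the fetal growth factor expressed from the paternal allele (chr7:142650766-142666816, minus strand), was listed at 0 counts in all 4 libraries. Of its 5723 exon bases, 3596 (62.8%) also belong to the exons of Gm49394, an annotated gene on the same strand that was likewise at 0 in every library. Counters can leave out reads that fit more than 1 gene, and the authors' counting mode is not stated in the labels. The 0 thus covers with certainty at most the 2127 bases not shared with Gm49394. The antisense gene Igf2os and the microRNA gene Mir483 also overlap Igf2, and the exon bases shared with them were not measured. A limit of 3 counts was 0.121 to 0.243 CPM, for counting error only. No fold change is given for Igf2.

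Igf1r (chr7:67952827-68233668, plus strand) was lower after irradiation. It had 454 and 338 counts without and 247 and 414 with radiation, or 27.1 and 27.3 CPM against 14.9 and 16.7 CPM. The 2 unirradiated libraries were almost equal and both irradiated libraries lay well under them. The mean fell from 27.2 ± 0.186 to 15.8 ± 1.31 CPM (SD, n = 2), with a log2 fold change of -0.77 (SE 0.104, 95% interval -0.98 to -0.56, adjusted p = 2.02e-09), or 1.72-fold lower. Against a change of at least 1.5-fold the adjusted p was 0.0445, close to the threshold of 0.05. Igf1r is the longest member, at 16791 exon bases, and its value was -1.11 once the trend of fold change with gene length and GC content was removed. Per kilobase of gene length, Igf1 stood at 0.0822 and 0.191 of the Igf1r level without radiation. With radiation it stood at 1.49 and 1.20, so on that scale the ligand transcript went from under to over the receptor transcript. In CPM, Igf1 stayed under Igf1r in both irradiated libraries, at 13.05 and 11.9 against 14.9 and 16.7.

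Igfbp5 (chr1:72857932-72874884, minus strand), a matrix-bound carrier known in the mammary gland for its rise during involution, was the most abundant member in every library. It had 18641 and 13807 counts without and 112759 and 157721 counts with radiation, or 1112 and 1117 CPM against 6781 and 6364 CPM. This single gene made up 0.106% of all counts in each unirradiated library and 0.713% and 0.664% in the irradiated libraries. Ranked by CPM among the tested genes it was number 88 in both unirradiated libraries and number 2 and 3 in irradiated A and B. Ranked per kilobase of length it was number 244 and 241 without and 18 and 22 with radiation. The log2 fold change was 2.56 (SE 0.0357, 95% interval 2.49 to 2.63, adjusted p = 1.28e-57), from a mean of 1115 ± 3.56 to 6572 ± 295 CPM (SD, n = 2).

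Igfbp2 (chr1:72824503-72852474, plus strand), a carrier that also binds integrins, had the largest change of the set. Its counts were 404 and 323 without and 4934 and 8018 with radiation, or 24.1 and 26.1 CPM against 296.7 and 323.5 CPM. The irradiated libraries were both far above the unirradiated ones and close to each other. The log2 fold change was 3.63 (SE 0.0641, 95% interval 3.51 to 3.76, adjusted p = 5.73e-52), or 12.3-fold, and it was larger than 99.0% of all tested genes. Igfbp2 and Igfbp5 are direct neighbours, lying tail to tail with 5457 bases between them and 0 other annotated genes in that gap. The upstream windows of both are printed above.

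Igfbp3 and Igfbp4 rose by similar amounts. Igfbp3 (chr11:7206086-7213923, minus strand), the main carrier of IGFs in blood, had 740 and 493 counts without and 2632 and 3857 with radiation, or 44.1 and 39.9 CPM against 158 and 156 CPM. Its log2 fold change was 1.89 (SE 0.0623, adjusted p = 7.00e-37). Igfbp4 (chr11:99041244-99054392, plus strand), a carrier that is cleaved by the protease pregnancy-associated plasma protein A, had 929 and 712 counts without and 3960 and 6196 with radiation. These were 55.4 and 57.6 CPM against 238 and 249.99 CPM, with a log2 fold change of 2.11 (SE 0.0560, adjusted p = 3.61e-42). The 2 libraries of each group lay near each other for both genes, and the groups were far apart.

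Igfbp6, Igfbp7 and Igfbp1 made up the rest. Igfbp6 (chr15:102144362-102149511, plus strand), a carrier that prefers IGF2, was low throughout, with 36 and 24 counts without and 131 and 183 with radiation. It went from 2.15 and 1.94 CPM to 7.88 and 7.38 CPM, with a log2 fold change of 1.88 (SE 0.238, adjusted p = 3.42e-10). Igfbp7 (chr5:77349240-77408041, minus strand), a relative that binds IGFs only weakly and is abundant in vessels, rose least. It had 1190 and 867 counts without and 1925 and 2978 with radiation, or 71.0 and 70.1 CPM against 116 and 120.2 CPM. Its log2 fold change was 0.74 (SE 0.0585, adjusted p = 9.61e-18), and 85 of its 1209 exon bases are shared with Polr2b on the other strand. Igfbp1 (chr11:7197782-7202546, plus strand), a carrier made chiefly by the liver, had 1 count in unirradiated B, 1 in irradiated A and 0 in the other libraries, and was not tested. It lies 3539 bases from Igfbp3, with 0 annotated genes between.

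**Figure D2:**
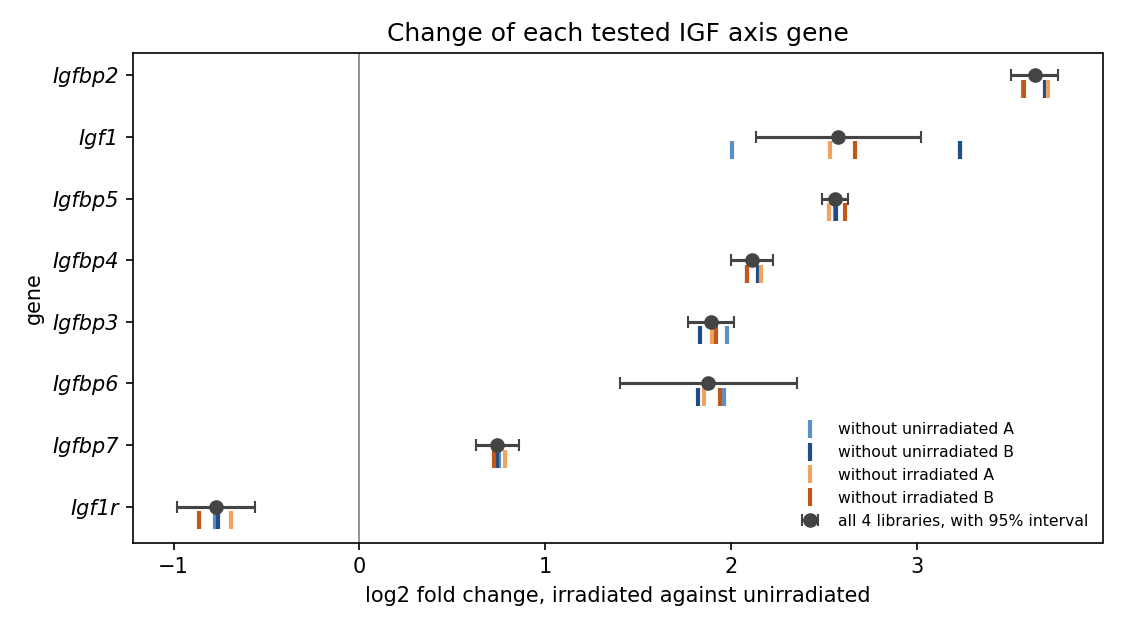
Log2 fold change of each tested member, irradiated against unirradiated, from all 4 libraries (black points, with 95% intervals) and with each library left out in turn (coloured ticks). Igfbp2 stood highest at 3.63 and Igf1r was the one gene under 0, at -0.77, while the ticks of Igf1 spread from 2.01 to 3.23.

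The order of the levels differed between the groups. Compared per kilobase of gene length, the means without radiation ran from Igfbp5 (186) and Igfbp7 (58.4) to Igfbp2 (13.6), Igfbp3 (13.4) and Igfbp4 (12.8), then Igfbp6 (1.84), Igf1r (1.62) and Igf1 (0.221). There Igfbp3, at 14.1 and 12.7, overlapped both Igfbp2, at 13.05 and 14.1, and Igfbp4, at 12.5 and 13.04. Igfbp2 and Igfbp4 did not overlap, but the gap between them was smaller than the spread of either pair. With radiation the order was Igfbp5 (1094), Igfbp2 (168), Igfbp7 (97.6), Igfbp4 (55.3), Igfbp3 (50.1), Igfbp6 (6.86), Igf1 (1.26) and Igf1r (0.940), with no overlap between neighbours. Igfbp2 had passed Igfbp7, and Igf1 had passed Igf1r, the latter only per length and not in CPM. The gene length in the tables is the union of all annotated exons, so a gene that uses a short transcript is understated on this scale.

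The make-up of the pool of binding protein transcripts shifted towards Igfbp2 and Igfbp5 and away from Igfbp7. The summed per-length level of the binding proteins was 285.5 and 285.7 CPM per kilobase without and 1497 and 1447 with radiation, 5.15-fold higher by the means. Igfbp5 held 65.0% ± 0.169 of it without and 74.3% ± 1.55 with radiation (SD, n = 2). The share of Igfbp7 went from 20.4% ± 0.185 to 6.63% ± 0.334, although its own level rose. The share of Igfbp2 went from 4.76% ± 0.269 to 11.4% ± 0.971. Igfbp3, Igfbp4 and Igfbp6 each held a smaller share with radiation, and their 2 groups did not overlap. The level of binding proteins per unit of Igf1 transcript was 2155 and 921 without and 1136 and 1208 with radiation, and there the groups overlapped. In shares of raw counts, where long transcripts weigh more, the mean of Igfbp5 was 85.0% without and 88.7% with radiation.

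**Figure D3:**
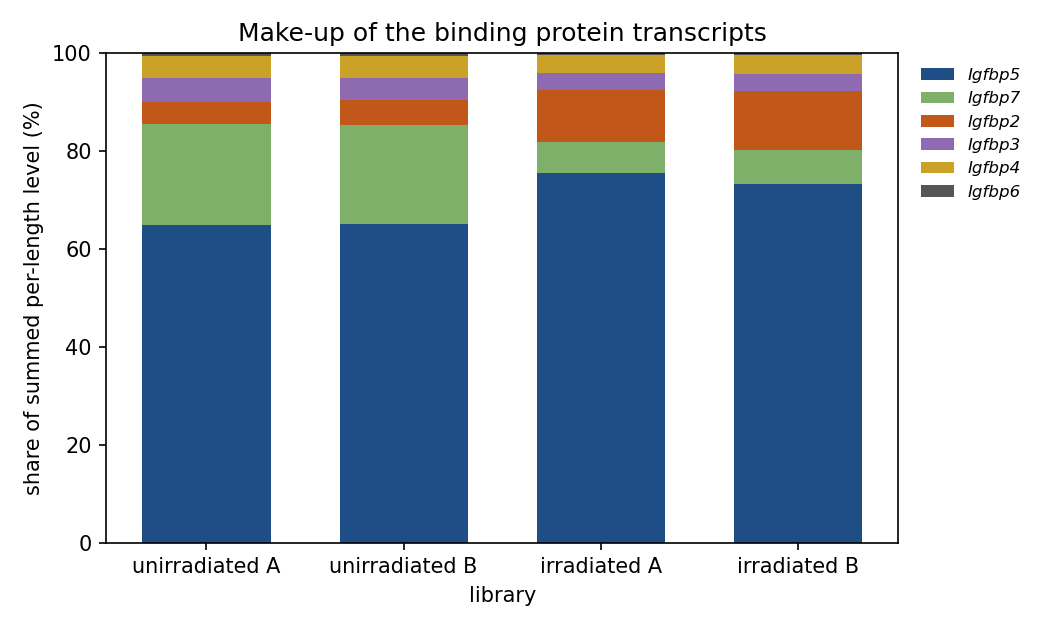
Share of each binding protein in the summed per-length level of the binding protein transcripts, as stacked bars in percent, with 1 bar per library. The Igfbp7 band narrowed from 20.6% and 20.3% in the unirradiated to 6.40% and 6.87% in the irradiated libraries, and the Igfbp2 band widened from 4.57% and 4.95% to 10.7% and 12.1%.

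The members were also set against the fibroblast markers, whose summed level was 3.34-fold higher with radiation. Per 100 CPM of these markers, Igfbp2 stood at 4.58 and 5.35 CPM without and 17.6 and 19.0 CPM with radiation. Igfbp5 stood at 211 and 229 against 402 and 374 CPM, so both rose more than the marker sum. Igfbp3, at 8.39 and 8.16 against 9.39 and 9.15 CPM, and Igfbp6, at 0.408 and 0.397 against 0.467 and 0.434 CPM, were nearly level with it, with log2 changes of 0.16 each. Igfbp7 went from 13.5 and 14.4 to 6.86 and 7.06 CPM, and Igf1r from 5.15 and 5.60 to 0.881 and 0.982 CPM. The log2 changes of Igf1 and Igfbp4 were 0.74 and 0.37. The choice of markers mattered. Within the fibroblast list, the fold of the means ran from 1.10 (Pdgfrb) to 23.3 (Pdpn). Igfbp7 was lower against the fibroblast, the endothelial (log2 change -0.58) and the macrophage (-0.76) marker sums. It had a log2 change of 0.16 against the pericyte and smooth muscle and 0.84 against the epithelial marker sum. Igfbp3 and Igfbp6, nearly level with the fibroblast sum, stood at 1.32 each against the pericyte and smooth muscle sum. Against the epithelial sum they stood at 2.00 each. Igf1r was lower against the fibroblast, the pericyte and smooth muscle and the epithelial sums, at -2.53, -1.37 and -0.69. These ratios are descriptions, and they do not tell which cells carried the transcripts.

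Around the axis, 66 further genes of IGF signalling were listed, of which 58 were tested. Of these, 37 were called higher and 12 lower, and the median of their log2 fold changes was 0.29. Over all tested genes the shares were 33.9% higher and 32.5% lower. That split depended on the scaling: with the length and GC trend removed it was 22 higher and 20 lower, beside 28.6% and 34.1% of all tested genes in that fit. Among the other receptors and carriers, Igfals, the partner that stabilises the complex of ligand and binding protein in blood, rose from 8.30 ± 0.0702 to 15.9 ± 0.271 CPM (log2 fold change 0.94). The insulin receptor Insr went from 38.8 ± 4.52 to 46.5 ± 2.59 CPM (0.24, adjusted p = 0.00625), and turned to -0.15 with the length and GC trend removed. Its call was lost in DESeq2 and without unirradiated B (0.14). The clearance receptor Igf2r was not past the threshold, at 189 ± 6.22 against 196 ± 3.50 CPM (0.05, adjusted p = 0.368), and with that trend removed it was called lower, at -0.23. Ins1 and Ins2 were at 0 in all libraries.

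Of 6 tested genes that cut binding proteins or block the cutting, 3 rose and 2 fell, beside 33.9% and 32.5% of all tested genes. The 2 lower were near the all-gene share. Pappa, the protease that frees IGF from Igfbp4, went from 3.94 ± 0.761 to 2.51 ± 0.0171 CPM (log2 fold change -0.67, adjusted p = 0.0194). Its call was lost in DESeq2 and without unirradiated A (-0.43), irradiated A (-0.67) or irradiated B (-0.65), and the list then had 0 or 1 lower genes. The stanniocalcins, which inhibit that protease, both rose: Stc1 went from 3.56 ± 0.568 to 6.52 ± 0.200 CPM (0.90) and Stc2 from 12.3 to 17.8 CPM (0.54). Adam12, a metalloprotease that can cleave Igfbp3 and Igfbp5, rose from 3.16 to 6.87 CPM (1.10), and Htra1 was not past the threshold (-0.01, adjusted p = 0.941).

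Of the 6 genes of the growth hormone pathway, which drives Igf1 in liver, 4 rose and 1 fell, beside 33.9% and 32.5% of all tested genes. Cish, a feedback inhibitor of that pathway, rose from 14.0 to 24.0 CPM (log2 fold change 0.77), and the kinase Jak2 rose by 0.46. The transcription factor Stat5a fell by 0.71 on the log2 scale, from 73.7 ± 3.38 to 45.0 ± 0.217 CPM, while its paralog Stat5b gave 0.02 and was not called. The hormone receptor Ghr passed at 0.21 (adjusted p = 0.00709) and turned to -0.16 with the length and GC trend removed. That list then had 2 higher and 3 lower, beside 28.6% and 34.1% of all tested genes in that fit. The Ghr call was lost in DESeq2 and without unirradiated A (0.19) or irradiated B (0.10), and in each of these fits 2 of the 6 genes were higher and 1 lower, and 2 of 6 is near the 33.9% of all tested genes called higher with all 4 libraries.

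Of 20 tested adaptors and kinases below the receptor, 12 rose and 4 fell, beside 33.9% and 32.5% of all tested genes. With the length and GC trend removed 6 were higher and 8 lower, near the all-gene shares of that fit. Irs1 and Irs2, the docking proteins that link the receptor to PI3K, rose from 13.8 ± 0.841 to 29.3 ± 0.124 CPM (log2 fold change 1.08) and from 169.7 ± 7.15 to 271 ± 8.89 CPM (0.68). The kinase Akt1, at 242 ± 8.96 against 241 ± 6.56 CPM, was not called. Pdpk1, the kinase that activates AKT, rose by 0.58 on the log2 scale. Of 7 genes that dampen the signal, 6 rose, beside 33.9% of all tested genes, and 0 passed against a change of at least 1.5-fold. Among the 6 was the tyrosine phosphatase Ptpn1, which went from 84.5 ± 3.60 to 114 ± 3.84 CPM (0.43). With the trend removed 3 of these 7 were higher, beside 28.6% of all tested genes.

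Of 8 tested transcripts known as targets of FOXO factors, which AKT holds out of the nucleus, 2 rose and 5 fell, beside 33.9% and 32.5% of all tested genes. With the length and GC trend removed, 0 were higher and 6 lower, beside 28.6% and 34.1% of all tested genes in that fit. Pink1, a mitochondrial quality-control kinase, fell from 133 ± 2.13 to 62.9 ± 2.43 CPM (log2 fold change -1.08). Bcl6, a transcriptional repressor, gave -0.77 and Fbxo32, a ubiquitin ligase of muscle wasting, gave -0.56. Sesn3, a stress-induced regulator of mTOR, rose by 0.37 and stood at -0.01 with the length and GC trend removed. These genes answer to many inputs besides IGF.

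All 8 tested relatives that carry an IGFBP-type domain were higher, beside 33.9% of all tested genes. With the length and GC trend removed 7 were higher, beside 28.6%. Of these relatives, 6 were higher in DESeq2, a fit that called 4487 of all genes higher. Against a change of at least 1.5-fold 5 were higher, beside 12.7% of all tested genes in the 1.5-fold test. With 1 library left out, the median log2 fold change of these relatives ranged from 1.11 to 1.35, against 1.20 with all 4 libraries. Ctgf (also named Ccn2), a matricellular protein of fibrosis, rose from 164 ± 0.114 to 639 ± 2.37 CPM (log2 fold change 1.96). Wisp2 rose from 3.12 ± 0.643 to 21.5 ± 2.39 CPM (2.76). Esm1, an endothelial proteoglycan, rose from 1.60 ± 0.487 to 11.4 ± 0.347 CPM (2.87), or 7.15-fold. The endothelial marker sum was 2.51-fold higher in the same libraries, and its part in the Esm1 value was not tested. Nov rose from 2.96 to 7.23 CPM (1.23).

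**Figure D4:**
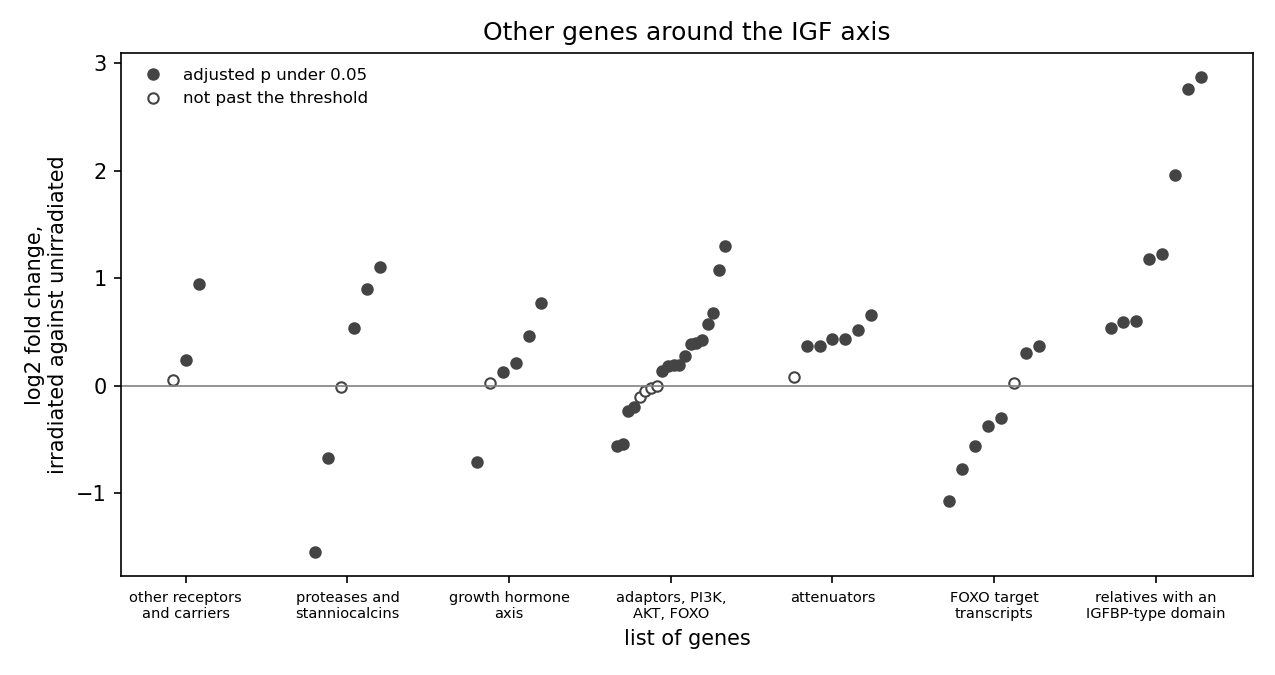
Log2 fold change, irradiated against unirradiated, of the 58 tested genes around the IGF axis, with 1 point per gene in 7 lists, filled where the adjusted p was under 0.05. The relatives with an IGFBP-type domain all lay above 0, and 5 of the 8 FOXO target transcripts were lower.

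The genes whose pattern over the 4 libraries was nearest to that of Igfbp2 and of Igf1r were sought among 13030 tested genes with named symbols and a mean of at least 1 CPM, by the distance between log2 CPM profiles centred on each gene's mean. Nearest to Igfbp2 were Hp (haptoglobin, distance 0.115), Ptx3 (a pentraxin, 0.116) and Chil1 (a chitinase-like protein, 0.134), with log2 fold changes of 3.71, 3.69 and 3.68. Nearest to Igf1r were Dnase1l2 (0.00921), S100a1 (0.0162) and Psmb8 (0.0329), with log2 fold changes of -0.83, -0.79 and -0.80. The Dnase1l2 call was lost without any 1 of the 4 libraries. With the length and GC trend removed S100a1 stood at -0.20, against -1.11 for Igf1r. With 4 libraries in 2 groups this measure is set mainly by the size of the change.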

How the data were processed

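Poly(A) RNA libraries were made with a non-directional kit, per the labels' protocols, so antisense or overlapping genes cannot be told apart. The authors worked on mm10 with STAR 2.5, HTSeq 0.6.1 and DESeq2, per the submitters' processing notes, which name no settings. The deposited tables hold the authors' raw counts per gene, with a gene length, per the file headers. From these counts, edgeR 4.0.16 (R 4.3.3) was run with filterByExpr, TMM scaling, the quasi-likelihood F-test and Benjamini-Hochberg adjustment over 15961 genes (threshold 0.05), and tested on simulated data. CPM values use TMM library sizes, and CPM per kilobase divides by the deposited length. Standard errors are the size of the log2 fold change divided by the root of the F statistic, with 60 prior and 2 residual degrees of freedom. Alternatives were RLE and upper-quartile scaling, removal of the length and GC trend, DESeq2 1.42.0, an older dispersion estimate, other filters, a replicate block, each library left out, an adjusted p threshold of 0.1 and a 1.5-fold test. Intervals cover 95%. Members and gene lists were chosen with earlier results of these data known. All 10 members are named. Of each pathway list, up to 4 called genes of at least 1 CPM with the largest change and up to 2 uncalled genes with the highest mean were eligible to be named, and for the pattern comparison the 3 nearest genes. Some eligible genes are not reported here. No exact permutation test was used, since with 2 libraries a group its smallest two-sided p is 0.333.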

Additional observations from a re-analysis of the deposited data

How the results depend on the processing

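All 8 tested members kept their direction and stayed past the threshold in all 104 alternatives computed. The log2 fold change ranged from 2.01 to 3.23 for Igf1, -1.11 to -0.69 for Igf1r, 3.57 to 3.90 for Igfbp2, 1.83 to 1.98 for Igfbp3, 2.06 to 2.18 for Igfbp4, 2.36 to 2.62 for Igfbp5, 1.82 to 2.28 for Igfbp6 and 0.70 to 1.14 for Igfbp7. With the replicate block there were 7 members higher and 1 lower, and 5418 of all genes higher and 5200 lower. No shared deviation of the libraries with the same letter, A or B, was seen (correlation of deviations 0.0116). This does not tell what the letters marked. Of the other pathway genes, 22 were higher and 20 lower with the length and GC trend removed, and 10 and 3 against 1.5-fold. Of all genes, 2032 were higher and 1754 lower against 1.5-fold, and DESeq2 called 3421 lower. Removing the length and GC trend moved the median of all genes by -0.076 and turned Insr (-0.15), Igf2r (-0.23), Htra1 (0.12), Ghr (-0.16), Stat5b (-0.11), Grb10 (-0.25), Sesn3 (-0.013) and Cdkn1b (-0.14). Upper-quartile scaling turned Stat5b (-0.023) and Cdkn1b (-0.016). DESeq2 turned Htra1 (0.0090) and Akt1 (0.032), and so did leaving out the low-count filter (0.056 and 0.059). With each library left out, Htra1 ranged from -0.16 to 0.11, Akt1 from -0.040 to 0.039, Grb10 from -0.082 to 0.22 and Cdkn1b from -0.0072 to 0.067. Of these genes, Insr, Ghr and Sesn3 were past the threshold in the test as reported. The cause was not tested. At this depth Igfbp1, with at most 1 count a library, could not be tested.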
